A study of Mus musculus with 6 samples.

Results

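Igf2 and H19 are a pair of neighbouring imprinted genes on mouse chromosome 7, and their RNA was described here in medulloblastoma, a malignant tumour of the cerebellum. Their members were taken as every transcript whose gene symbol in the deposited files is Igf2 or H19. This gave 9 Igf2 and 5 H19 transcripts, 14 of 131100 in all, which belong to 2 of 52550 genes. RNA-seq was available from 3 tumours labelled mutant for Eed and 3 labelled wild type. The Eed protein is part of the core of Polycomb repressive complex 2, which methylates histone H3 and keeps developmental genes silent. The sources used here do not give the Eed allele, the driver of the tumours, the strain, the age or the number of animals. No treatment is named. Since separate animals are not stated, p-values cover the spread among these 6 samples, which may be technical.

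Igf2 encodes insulin-like growth factor 2, a fetal growth factor that signals through the Igf1r and Insr receptors and is cleared by Igf2r. H19 encodes a long noncoding RNA that is the precursor of miR-675 and restrains fetal growth. Igf2 is normally expressed from the paternal allele and H19 from the maternal one. Both draw on shared enhancers beyond H19, and the factor Ctcf, bound to the unmethylated maternal control region between them, keeps Igf2 from using them. After birth Igf2 falls in most mouse tissues, while in the brain it continues in the choroid plexus and meninges. The values below do not separate the parental alleles.

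The 6 libraries held 26186236 to 26425111 estimated counts, with 28424 to 28635 genes above 0. Eed RNA itself averaged 33.3 ± 3.12 CPM (counts scaled to library size) in Eed mutant tumours and 36.5 ± 6.87 CPM in wild-type tumours (SD, n = 3 each), and the groups overlapped. The lesion was therefore not visible in its level, and a change in sequence could not be read from these files. The summed level of 13 granule-lineage tumour markers was 5216 to 5815 CPM in Eed mutant tumours and 5681 to 5854 CPM in wild-type tumours, and no marker was at 0. Single markers did differ. In all Eed mutant tumours 2 were higher and 3 lower, beside 13.1% and 11.9% of all genes tested. DESeq2, a test used below, called 1 higher and 2 lower, beside 3.15% and 2.48% of all genes. Each file also carries a code of unstated meaning, shared by Eed mutant replicates 1 and 2 with wild-type replicate 2 and by the replicates 3 of both groups.

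Both genes were higher in every Eed mutant tumour than in any wild-type tumour, and H19 differed by the larger factor. The 2 genes are transcribed from the minus strand and lie 72.6 kb apart. Igf2 (ENSMUSG00000048583.16) spans chr7:142650766-142666816 and H19 (ENSMUSG00000000031.15) spans chr7:142575529-142578143 on GRCm38. More cells of an expressing type and more RNA per cell cannot be told apart in such bulk samples.

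Igf2 stood at 169, 134 and 284 TPM (a level scaled by transcript length and library size) in Eed mutant replicates 1 to 3, against 83.8, 70.7 and 105 TPM in wild-type replicates 1 to 3. Eed mutant replicate 3 was the highest, and the lowest Eed mutant tumour was still above the highest wild-type tumour. The means were 196 ± 78.4 TPM in Eed mutant tumours and 86.4 ± 17.2 TPM in wild-type tumours (SD, n = 3 each), a 2.26-fold ratio. In CPM, the groups averaged 388 ± 149 in Eed mutant tumours and 159 ± 34.2 in wild-type tumours. Igf2 was an abundant transcript in all 6 tumours, ranking 405 to 1127 among genes by TPM in Eed mutant tumours and 1521 to 2576 in wild-type tumours.

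The log2 difference of Igf2 (Eed mutant minus wild type) was 1.29 with a standard error of 0.28 in edgeR's quasi-likelihood test. That test gave an adjusted p of 0.144 over 19145 genes, so Igf2 did not pass. With it no gene passed in either direction, 0% of those tested, and at an unadjusted p under 0.05 it gave 1779 higher and 1680 lower genes, 9.29% and 8.78%. DESeq2 gave Igf2 the same log2 difference with an adjusted p of 7.21e-05, and Igf2 rose in that test, as did 3.15% of the 16347 genes that received an adjusted p, while 2.48% fell. Over the 25 alternatives tried, the adjusted p of Igf2 ran from 1.45e-24 to 0.462. The lowest came from DESeq2 with the replicate number as a block, a pairing that the labels do not give. A log2 difference at least as high as that of Igf2 was found for 1.1% of the genes tested.

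H19 had 70.0, 54.9 and 203 TPM in Eed mutant replicates 1 to 3, against 6.96, 3.61 and 22.9 TPM in wild-type replicates 1 to 3. Replicate 3 was the highest of its group on both sides, and the groups did not overlap. The means were 109 ± 81.5 TPM in Eed mutant tumours and 11.2 ± 10.3 TPM in wild-type tumours (SD, n = 3 each), a 9.81-fold ratio. H19 ranked 632 to 3411 among genes by TPM in Eed mutant tumours and 7219 to 13726 in wild-type tumours.

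The log2 difference of H19 was 3.32 with a standard error of 0.76 in edgeR's test, with an adjusted p of 0.149. In DESeq2 the difference was also 3.32, its adjusted p was 0.00894 and H19 rose. Its adjusted p ran from 3.31e-105 to 0.4695 over the 25 alternatives, and the lowest again came from DESeq2 with the replicate number as a block. A log2 difference at least as high as that of H19 was found for 0.157% of the genes tested. Groups that do not overlap were common in these data, with 13.1% of tested genes higher in all Eed mutant tumours and 11.9% lower.

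The DESeq2 calls of both genes were lost when certain libraries were left out. For Igf2 the adjusted p was 0.0911 without wild-type replicate 1 and 0.123 without wild-type replicate 2, and it stayed under 0.05 without each other library. For H19 it was 0.0789 without Eed mutant replicate 1, 0.138 without Eed mutant replicate 3 and 0.0731 without wild-type replicate 1. The edgeR log2 difference of H19 was 2.54 without Eed mutant replicate 3 and 4.35 without wild-type replicate 3. Within the file code that the replicates 3 share, 1 library a group, the Eed mutant to wild-type ratio in CPM was 2.84 for Igf2 and 9.04 for H19. Within the other shared code it was 2.37 for Igf2 and 16.9 for H19.

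**Figure D1:**
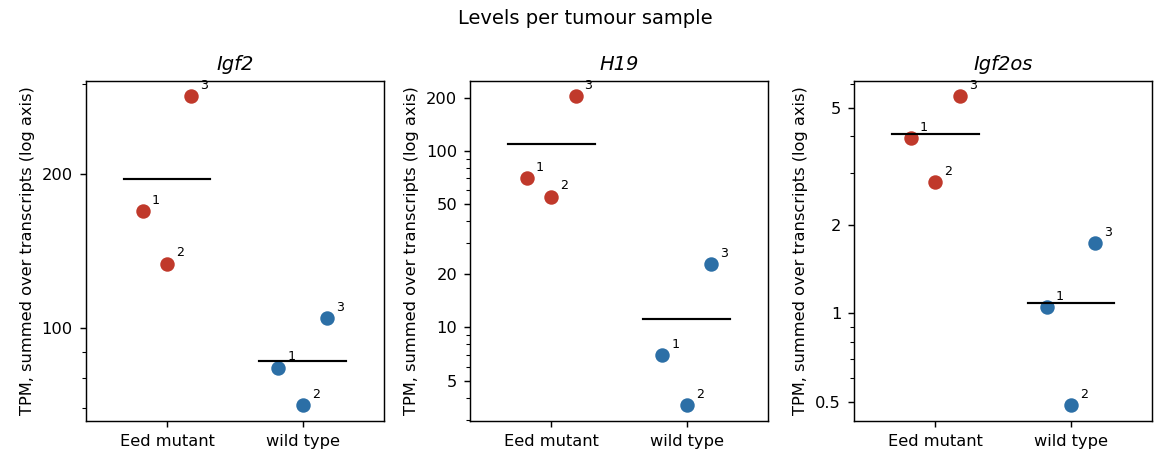
TPM of Igf2, H19 and the antisense gene Igf2os, summed over transcripts, on log axes. Each point is 1 tumour, marked with its replicate number, and lines show the mean of each group (n = 3 each). The Eed mutant tumours lie at 134 to 284 TPM for Igf2 and 54.9 to 203 TPM for H19, all above the wild-type tumours.

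The pair also varied within each group. The coefficient of variation of H19 in CPM was 72.8% among Eed mutant tumours and 89.9% among wild-type tumours, a value that 0.891% and 0.496% of 15934 genes reached in the same groups. For Igf2 it was 38.4% among Eed mutant tumours and 21.6% among wild-type tumours, beside medians over those genes of 7.82% and 11%. Of those genes, 3.665% and 21.86% reached the Igf2 values, so its spread among wild-type tumours was not rare. In both groups the order of tumours was the same for the 2 genes, with replicate 3 highest and replicate 2 lowest.

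The balance of the pair was higher for H19 in every Eed mutant tumour. The ratio of H19 to Igf2 TPM was 0.414, 0.411 and 0.716 in Eed mutant replicates 1 to 3, against 0.0831, 0.0511 and 0.218 in wild-type replicates 1 to 3. The lowest Eed mutant ratio was above the highest wild-type ratio, that of replicate 3. On the log2 scale the ratio averaged -1.01 ± 0.46 in Eed mutant tumours and -3.36 ± 1.07 in wild-type tumours (SD, n = 3 each). The difference of 2.35 had an exact two-sided permutation p of 0.1, the smallest that 3 against 3 samples allow, so 0.05 could not be reached. Igf2 stayed the more abundant of the pair per length in all 6 tumours.

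Igf2 RNA can begin at several start sites, so the pair was next described by transcript. The most abundant form, Igf2-201, starts at position 142657496 and has 4 exons over 3708 bases. Igf2-205 starts 1.99 kb farther upstream with a first exon of 1126 bases, and Igf2-204 starts 3.81 kb upstream with a first exon of 374 bases. These forms share the later exons that encode the growth factor. The regions just upstream of the Igf2-201 and Igf2-204 starts are printed because the results below set these starts against each other. They are from RefSeq on GRCm38.p6, read 5′ to 3′ on the minus strand, and end at the base before the GENCODE start. Capitals mark the motif ATAAAA, the motif GGGCGG and the motif CCAAT on either strand, which do not overlap there.
Igf2-201 upstream region, chr7:142657497-142657746: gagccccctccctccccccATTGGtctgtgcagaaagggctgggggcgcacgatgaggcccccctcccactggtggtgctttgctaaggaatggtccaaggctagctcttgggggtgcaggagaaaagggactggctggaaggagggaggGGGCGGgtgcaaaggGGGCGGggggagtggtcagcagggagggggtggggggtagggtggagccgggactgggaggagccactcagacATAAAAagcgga
Igf2-204 upstream region, chr7:142661306-142661521: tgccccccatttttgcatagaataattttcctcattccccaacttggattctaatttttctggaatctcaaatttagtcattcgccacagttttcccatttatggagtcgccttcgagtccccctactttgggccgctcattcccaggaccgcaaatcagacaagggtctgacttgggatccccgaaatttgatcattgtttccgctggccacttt

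The Igf2-201 region has 250 bases with 6 CpG and holds ATAAAA once, GGGCGG at 2 places and CCAAT once as its reverse complement ATTGG. The Igf2-204 region has 216 bases with 7 CpG and holds none of the 3 motifs. Among 32851 RefSeq promoter windows of 250 bases upstream, 17% hold ATAAAA, 32.7% GGGCGG and 33.8% CCAAT, and the median is 6 CpG. RefSeq lists 4 Igf2 starts, and the window most dense in CpG is that of the start at 142658804, with 22 CpG, a number that 14.8% of windows reach. A match is only a match of letters in this window.

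Igf2-201, Igf2-205 and Igf2-204 were each higher in all Eed mutant tumours, and the log2 differences of the upstream forms were larger than that of Igf2-201. Of all tested transcripts, 7.19% were higher in TPM in every Eed mutant tumour and 10.7% lower. Igf2-201 had 105, 86.6 and 182 TPM in Eed mutant replicates 1 to 3, against 54.5, 46.0 and 68.7 TPM in wild-type replicates 1 to 3. Its log2 difference was 1.19 with a standard error of 0.30, and the adjusted p was 0.393 in edgeR over 50890 transcripts. At that level edgeR called 0 transcripts (0%), against 2597 higher (5.1%) and 2397 lower (4.71%) at an unadjusted p under 0.05. In DESeq2, which called 1.79% of 32596 transcripts higher and 1.13% lower, Igf2-201 rose with an adjusted p of 0.00357. Without wild-type replicate 2 that p was 0.403.

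Igf2-205 had 10.1, 7.18 and 16.2 TPM in Eed mutant replicates 1 to 3, against 2.42, 1.26 and 3.83 TPM in wild-type replicates 1 to 3. All Eed mutant values lay above all wild-type values. The log2 difference was 2.21 with a standard error of 0.46, with an adjusted p of 0.35 in edgeR and 0.000152 in DESeq2, in which it rose.

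Igf2-204 had 8.36, 8.23 and 10.3 TPM in Eed mutant replicates 1 to 3, against 1.22, 1.22 and 2.90 TPM in wild-type replicates 1 to 3. The Eed mutant tumours lay close together and clear of the wild-type tumours. The log2 difference was 2.38 with a standard error of 0.37, with an adjusted p of 0.311 in edgeR and 1.51e-07 in DESeq2, in which it rose. The DESeq2 calls of Igf2-204 and Igf2-205 held when each library was left out in turn. Over the 17 alternatives the adjusted p ran from 3.13e-36 to 0.637 for Igf2-204, from 9.11e-07 to 0.718 for Igf2-205 and from 0.000258 to 0.741 for Igf2-201.

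Igf2-208, annotated as a noncoding processed transcript in the gene's 3′ part, was the second most abundant form by TPM in all 6 tumours. It averaged 46.8 ± 20.2 TPM in Eed mutant tumours and 24.7 ± 2.99 TPM in wild-type tumours (SD, n = 3 each). It had 557, 431 and 968 estimated counts in Eed mutant replicates 1 to 3, against 342, 297 and 372 in wild-type replicates 1 to 3. Its groups did not overlap, and its log2 difference of 0.97 had an adjusted p of 0.425 in edgeR and 0.0678 in DESeq2. The other 5 Igf2 forms had at most 18.4 estimated counts in any tumour and were below the filter on low counts. Igf2-203, from the farthest start at 9.32 kb upstream, had 4.05, 0 and 3.36 counts in Eed mutant replicates 1 to 3 and 0 in all wild-type tumours.

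**Figure D2:**
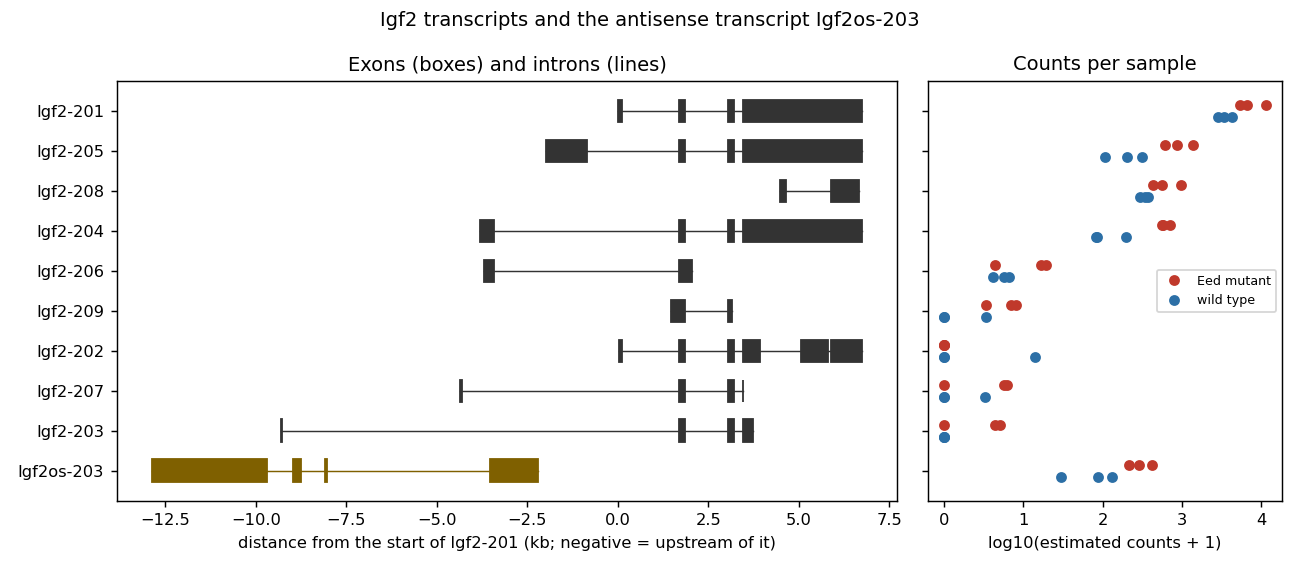
Exons (boxes) and introns (lines) of the 9 Igf2 transcripts and the main antisense transcript, by distance in kb from the Igf2-201 start (left), and log10(estimated counts + 1) of each in each tumour (right). The Eed mutant points lie right of the wild-type points for Igf2-201, Igf2-204, Igf2-205, Igf2-208 and the antisense transcript, and the other Igf2 forms hold few counts.

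The makeup of Igf2 RNA was set out as the share of its counts in each form. Igf2-201 took 76.8%, 77.3% and 79.0% of Igf2 estimated counts in Eed mutant replicates 1 to 3, against 84.3%, 85.2% and 82.7% in wild-type replicates 1 to 3. The groups did not overlap, and the difference of means was -6.35 percentage points, with the smallest possible exact permutation p of 0.1 (two-sided). Among 12743 genes with several measured forms, the share of the leading form was lower in all Eed mutant tumours for 5.37% and higher for 7.1%. Scaled for length, the share of Igf2-201 was 63.7% ± 1.43 of TPM in Eed mutant tumours and 65.2% ± 0.28 in wild-type tumours (SD, n = 3 each), a smaller difference of -1.53 points.

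The upstream forms Igf2-204 and Igf2-205 together took 16.5%, 16.5% and 14.2% of Igf2 counts in Eed mutant replicates 1 to 3, against 7.04%, 5.58% and 9.91% in wild-type replicates 1 to 3. Every Eed mutant share was above every wild-type share, by means of 15.7% ± 1.34 in Eed mutant tumours and 7.51% ± 2.2 in wild-type tumours (SD, n = 3 each). The exact two-sided permutation p was again 0.1, and this sum was chosen after the transcript values were seen. As a share of TPM it averaged 10.6% in Eed mutant tumours and 4.76% in wild-type tumours.

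**Figure D3:**
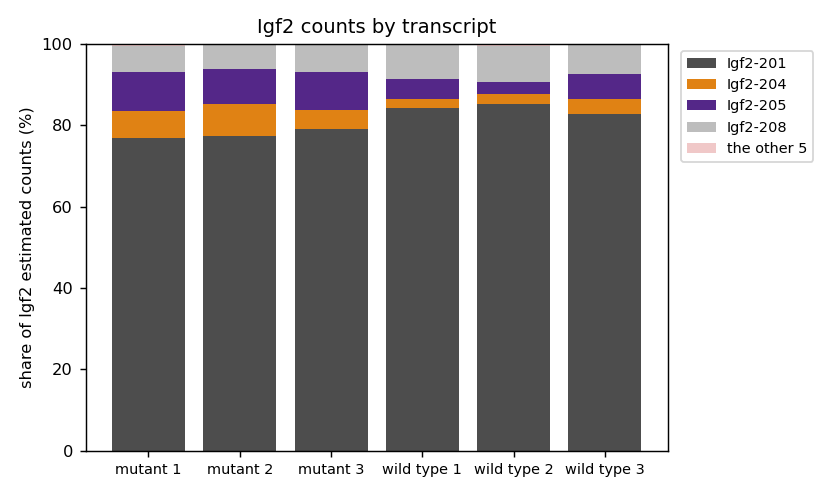
Stacked bars of the share of Igf2 estimated counts, in percent, assigned to each Igf2 transcript in each tumour. In Eed mutant tumours Igf2-201 holds 76.8% to 79.0% and the upstream pair 14.2% to 16.5%, against 82.7% to 85.2% and 5.58% to 9.91% in wild-type tumours.

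These forms differ little in sequence, which limits how firmly reads can be divided. Of the 31-base words that kallisto matches, Igf2-205 holds 1121 of 4688 (23.9%) that no other annotated transcript has. Igf2-204 has 100 of its own among 3936 (2.54%), and shares 70 with the antisense gene Igf2os. Igf2-201 has only 33 of its own among 3674 (0.898%), so its level depends most on the estimation step. In Igf2-208, 899 of 924 words are shared with Igf2-201.

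For H19 the makeup differed by less than the spread among wild-type tumours. H19-202, its main form, had 53.7, 41.6 and 146 TPM in Eed mutant replicates 1 to 3, against 4.97, 3.25 and 17.1 TPM in wild-type replicates 1 to 3. The groups did not overlap, and its log2 difference of 3.30 had an adjusted p of 0.377 in edgeR and 0.0111 in DESeq2, in which it rose. That DESeq2 p was 0.0877 without Eed mutant replicate 1, 0.0961 without wild-type replicate 1 and 0.0822 without wild-type replicate 2. H19-205 had 389.7, 312 and 1391 estimated counts in Eed mutant replicates 1 to 3, against 57.9, 10.6 and 126 in wild-type replicates 1 to 3. Its log2 difference was 3.43 (adjusted p 0.406 in edgeR, 0.0417 in DESeq2). The DESeq2 p of H19-205 was 0.202 without Eed mutant replicate 1, 0.0945 without Eed mutant replicate 2, 0.188 without Eed mutant replicate 3 and 0.17 without wild-type replicate 1. H19-202 took 81.1% ± 2.23 of H19 counts in Eed mutant tumours and 83.3% ± 8.0 in wild-type tumours (SD, n = 3 each), with overlapping groups and an exact two-sided permutation p of 0.9.

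The smaller H19 forms were near the limit of detection. H19-203 had 35.5, 29.9 and 103 counts in Eed mutant replicates 1 to 3, against 0, 0 and 10.1 in wild-type replicates 1 to 3, so it passed the filter only through the Eed mutant tumours. H19-201 and H19-204 each had counts in a single library, 2.17 in wild-type replicate 3 for H19-201 and 5.74 in Eed mutant replicate 3 for H19-204.

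Each gene also hosts a microRNA, shown because their products are the other known RNA output of the pair. The mature sequences are from RefSeq on GRCm38.p6, minus strand, with the seed (bases 2 to 8) in capitals. miR-675 lies in exon 1 of H19 and miR-483 in intron 2 of Igf2-201.
mmu-miR-675-5p, chr7:142577112-142577133: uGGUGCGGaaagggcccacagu
mmu-miR-675-3p, chr7:142577078-142577099: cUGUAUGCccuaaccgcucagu
mmu-miR-483-5p, chr7:142654968-142654989: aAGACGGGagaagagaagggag
mmu-miR-483-3p, chr7:142654932-142654952: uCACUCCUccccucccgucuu

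The 4 seeds differ from each other, and none is shared by another of the 1679 mature mouse miRNAs in that table. The libraries are not small RNA libraries, so mature miRNAs were not measured. The hairpin transcript Mir483 had 5, 3 and 9 counts in Eed mutant replicates 1 to 3, against 0, 0 and 1 in wild-type replicates 1 to 3. Summed, that is 17 counts in Eed mutant tumours and 1 in wild-type tumours, a ratio of 17 with a 95% exact interval of 2.66 to 710.5, which covers counting error only. Such reads cannot be told apart from unspliced Igf2 RNA. Mir675 was listed at 0 in all 6 tumours, while its host exon was counted as H19.

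Igf2os, a noncoding RNA transcribed against Igf2 across the Igf2-204 start but not that of Igf2-205 (chr7:142659693-142670356, plus strand), had the same direction. It had 289, 214 and 427 counts in Eed mutant replicates 1 to 3, against 86, 30 and 131 in wild-type replicates 1 to 3. The groups did not overlap. Its log2 difference was 1.92 with a standard error of 0.50, with an adjusted p of 0.156 in edgeR and 0.00108 in DESeq2, in which it rose. The strand of the reads is not stated, so reads of Igf2os and of the first exon of Igf2-204 cannot be told apart where they overlap.

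The rest of the neighbourhood held differences in either direction, most of them small. Of 60 genes annotated within 500 kb of the pair, 57 were in the files and 19 had enough counts to be tested. Unadjusted p under 0.05 in edgeR was found for 5 higher and 2 lower genes, beside 9.29% and 8.78% of all genes. DESeq2 called 4 higher and 0 lower, beside 3.15% and 2.48% of all genes. Their median log2 difference was -0.05, beside -0.01 over all genes tested. The DESeq2 calls were Igf2os, Tnnt3 and Tnni2, which encode fast skeletal muscle troponins, and Prr33.

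Tnnt3 had 6.53, 3.46 and 13.5 CPM in Eed mutant replicates 1 to 3, against 0.378, 0.492 and 0.989 CPM in wild-type replicates 1 to 3, a log2 difference of 3.65 (adjusted p 0.121 in edgeR, 2.63e-09 in DESeq2). Tnni2 had 1.65, 1.04 and 3.74 CPM in Eed mutant replicates 1 to 3, against 0.113, 0.151 and 0.38 CPM in wild-type replicates 1 to 3. Its log2 difference was 3.29 (adjusted p 0.134 in edgeR, 0.000111 in DESeq2). Its counts in wild-type replicates 1 to 3 were only 3, 4 and 10. Both troponins were higher in every Eed mutant tumour, with replicate 3 highest in each group as for H19. Prr33 differed by 1.74 (log2) with overlapping groups.

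Mrpl23 and Gm33148, beside and between the pair, showed smaller differences. Mrpl23, a mitochondrial ribosomal protein gene next to H19, averaged 4.04 CPM in Eed mutant tumours and 3.55 CPM in wild-type tumours, a log2 difference of 0.19 (adjusted p 0.712 in edgeR). Gm33148, a gene between H19 and Igf2, averaged 2.198 CPM in Eed mutant tumours and 1.67 CPM in wild-type tumours, a log2 difference of 0.40 (adjusted p 0.525 in edgeR). Neither passed a test in edgeR or DESeq2, and both had overlapping groups. Ctsd, a lysosomal protease, differed by -0.27 and Cd81, a tetraspanin, by -0.07, also without passing. Larger differences were found for Lsp1, at 1.525 with overlapping groups, and Tspan32, at -1.20 with at most 0.868 CPM in any tumour. R74862 differed by -0.39. Tspan32 and R74862 were lower in all Eed mutant tumours, and none of these genes passed in edgeR or DESeq2. Ins2, which lies just beyond Igf2 and encodes insulin, had at most 0.113 CPM in any tumour.

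**Figure D4:**
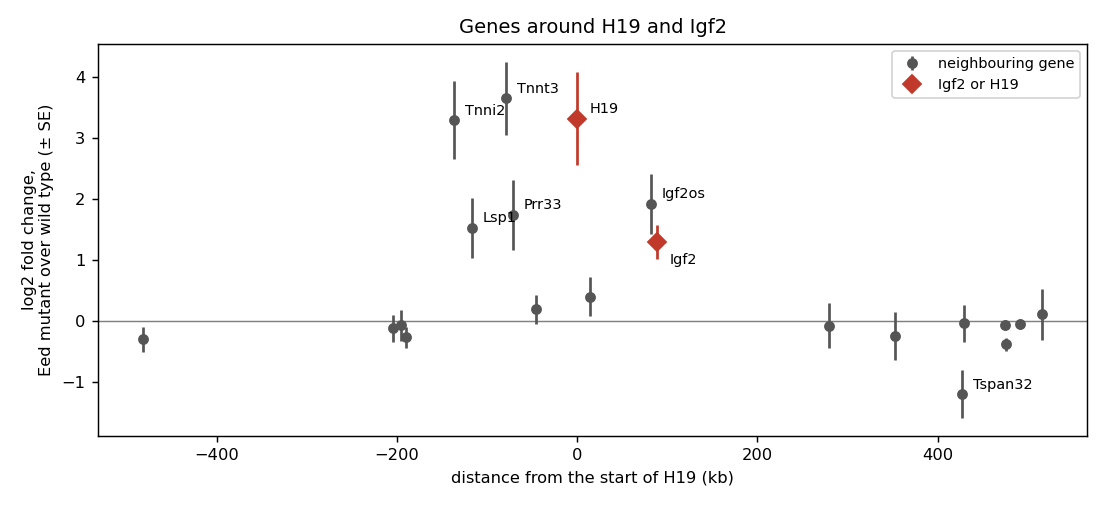
Log2 difference (Eed mutant minus wild type, edgeR, with standard errors) of the tested genes within 500 kb of the pair, against distance from the H19 start in kb. H19, Tnnt3 and Tnni2 stand above 3, Igf2, Igf2os, Lsp1 and Prr33 between 1 and 2, Tspan32 at -1.20, and most others near 0.

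Regulators of the pair were taken from a list of 22 genes, of which 18 were tested. In edgeR 7 were higher and 1 lower at an unadjusted p under 0.05, which 9.29% and 8.78% of all genes tested also were. DESeq2 called 3 higher (Plag1, Plagl1, Igf2bp3) and 1 lower (Zfp57), beside 3.15% and 2.48% of all genes. The median log2 difference of the list was 0.18, beside -0.01 over all genes.

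Plag1, a zinc finger activator of Igf2, had 3.95, 4.46 and 4.38 CPM in Eed mutant replicates 1 to 3, against 1.25, 1.06 and 1.06 CPM in wild-type replicates 1 to 3. Its replicates lay close together, and its log2 difference was 1.92 (adjusted p 0.0808 in edgeR, 7.76e-10 in DESeq2). Igf2bp3, which binds Igf2 mRNA, averaged 54.7 CPM in Eed mutant tumours and 17.97 CPM in wild-type tumours (log2 difference 1.6, adjusted p 0.134 in edgeR, 9.59e-06 in DESeq2). Plagl1, an imprinted zinc finger factor that regulates both genes in mice, averaged 112 CPM in Eed mutant tumours and 61.5 CPM in wild-type tumours (log2 difference 0.87, adjusted p 0.227 in edgeR, 0.0441 in DESeq2). Lin28b, an RNA-binding protein of fetal tissue, differed by 1.79 (log2), with adjusted p 0.235 in edgeR and 0.227 in DESeq2. It had 25.7, 34.5 and 23.2 CPM in Eed mutant replicates 1 to 3. In wild-type replicates 1 to 3 it had 1.21, 11.8 and 11.2 CPM, so wild-type replicate 1 enlarged the difference. Zfp57, which maintains methylation at imprinting control regions, averaged 100.3 CPM in Eed mutant tumours and 131 CPM in wild-type tumours (log2 difference -0.39, DESeq2 adjusted p 0.0369). Ctcf averaged 278 CPM in Eed mutant tumours and 246 CPM in wild-type tumours, with overlapping groups and an edgeR adjusted p of 0.308.

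The receptors and partners through which Igf2 acts held differences in either direction. Of 18 listed, 15 were tested, with 1 higher and 3 lower at an unadjusted p under 0.05 in edgeR (9.29% and 8.78% of all genes) and the same numbers in DESeq2 (3.15% and 2.48% of all genes). Their median log2 difference was 0.11. Igf1r, the signalling receptor, averaged 209.6 CPM in Eed mutant tumours and 195 CPM in wild-type tumours, a log2 difference of 0.11 with a standard error of 0.07. Igf2r, the clearance receptor, averaged 47.7 CPM in Eed mutant tumours and 43.2 CPM in wild-type tumours, a log2 difference of 0.14 with a standard error of 0.16. Neither receptor passed in edgeR or DESeq2, and they are named for their role, after their values were seen.

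Among the other partners, DESeq2 called Pappa higher and Htra1, Irs2 and Igfbp2 lower. Pappa, a protease that frees growth factor from binding proteins, averaged 3.69 CPM in Eed mutant tumours and 1.77 CPM in wild-type tumours (log2 difference 1.06, adjusted p 0.182 in edgeR, 0.0443 in DESeq2). Htra1, a secreted protease, averaged 22.2 CPM in Eed mutant tumours and 36.4 CPM in wild-type tumours (log2 difference -0.71, adjusted p 0.134 in edgeR, 0.000555 in DESeq2). Pappa2, with the largest log2 difference of the partners tested at 1.09, and Igfbp4, at -0.48, passed in neither tool.

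H19 and Igf2 belong to a set of imprinted growth genes that are expressed together in the mouse embryo. Of 20 other members listed, 19 were tested, with 8 higher and 1 lower at an unadjusted p under 0.05 in edgeR, against 9.29% and 8.78% of all genes. DESeq2 called 6 higher (Dlk1, Magel2, Cdkn1c, Slc38a4, Grb10 and Plagl1) and 1 lower (Dcn), against 3.15% and 2.48% of all genes. The median log2 difference was 0.30. The other members include Meg3, Gnas, Mest, Peg3 and Sgce, with differences of -0.04, -0.08, 0.14, -0.09 and -0.03 on the log2 scale. Asb4, Zim1, Rian, Peg10, Ndn and Igf2r differed by 1.14, 0.60, 0.42, 0.30, 0.24 and 0.14, and Usp29 by -0.35. DESeq2 called none of these other members. Phlda2, a growth-restraining gene of the same chromosome end, was listed at 0 in all tumours.

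Cdkn1c, a maternally expressed cell cycle inhibitor in the cluster next to Igf2, had 39.0, 31.4 and 73.2 CPM in Eed mutant replicates 1 to 3, against 11.4, 9.20 and 15.5 CPM in wild-type replicates 1 to 3. Its groups did not overlap, and its log2 difference was 1.99 (adjusted p 0.13 in edgeR, 8.57e-08 in DESeq2). Dlk1, a paternally expressed inhibitor of differentiation, averaged 1.75 CPM in Eed mutant tumours and 0.0883 CPM in wild-type tumours (log2 difference 4.24, adjusted p 0.13 in edgeR, 3.34e-05 in DESeq2). It had 3, 2 and 2 counts in wild-type replicates 1 to 3, so it passed the filter only through the Eed mutant tumours. Magel2 differed by 2.60 and the amino acid transporter Slc38a4 by 1.96 on the log2 scale, both called by DESeq2.

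Markers of other cell types that could contribute Igf2 or H19 RNA were read beside the pair. All 16 skeletal muscle markers were tested, 15 were higher in all Eed mutant tumours, and DESeq2 called 12 higher and 0 lower. Chrng had 0, 2 and 5 counts in wild-type replicates 1 to 3, so it passed the filter only through the Eed mutant tumours. In the same wild-type replicates Tnni2 had 3, 4 and 10 counts, Tnnc2 3, 19.9 and 32.6, and Myog 5, 1 and 62. Tnnt3 and Tnni2 were also counted as neighbours above. Of all genes tested in edgeR, 13.1% were higher in all Eed mutant tumours, and DESeq2 called 3.15% of all genes higher and 2.48% lower. The list was chosen with earlier results of these data known. Their summed level was 226, 165 and 538 CPM in Eed mutant replicates 1 to 3, against 70.9, 76.1 and 127 CPM in wild-type replicates 1 to 3. Without Myod1, the marker of the highest mean level, the sums were 178, 97.9 and 466 CPM in Eed mutant replicates 1 to 3. In wild-type replicates 1 to 3 they were 20.6, 22.8 and 45.4 CPM, and these sums were added after seeing the data. The median log2 difference of the list was 3.36, beside -0.01 over all genes tested, and no marker was at 0 in all tumours. Among its defining genes, Myog, a myogenic transcription factor, averaged 12.9 CPM in Eed mutant tumours and 0.861 CPM in wild-type tumours (log2 difference 3.9, DESeq2 adjusted p 0.0994). Myod1, another, averaged 62.4 CPM in Eed mutant tumours and 61.7 CPM in wild-type tumours. Replicate 3 was the highest in both groups for the sum of all 16 markers, for Igf2 and for H19. The part of muscle-type RNA in the difference of the pair was not tested.

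**Figure D5:**
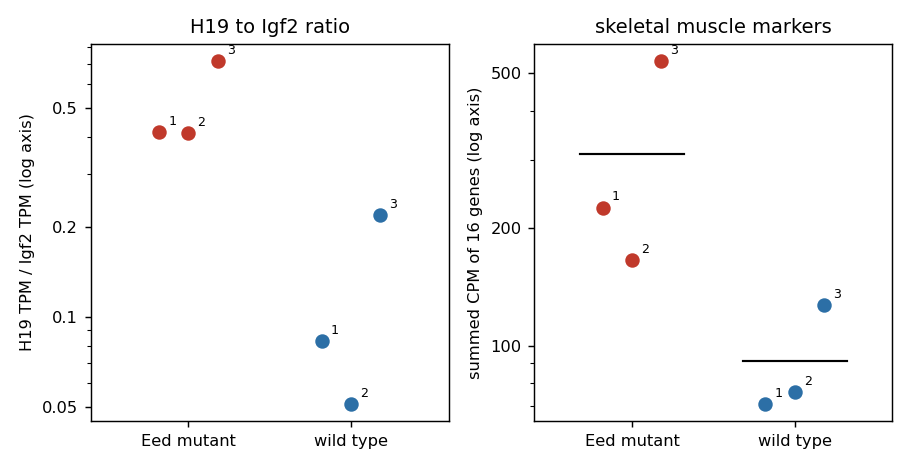
Ratio of H19 to Igf2 TPM and summed CPM of 16 skeletal muscle markers in each tumour (points with replicate numbers, and lines at the group mean of the marker sum), both on log axes. Eed mutant tumours lie at 0.411 to 0.716 and 165 to 538 CPM, above wild-type tumours at 0.0511 to 0.218 and 70.9 to 127 CPM.

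Markers of the meninges and choroid plexus, which express Igf2 in the normal brain, were read next. The 16 meningeal fibroblast markers summed to 436, 501 and 514 CPM in Eed mutant replicates 1 to 3, against 576, 611 and 593 CPM in wild-type replicates 1 to 3, so the sum was lower in all Eed mutant tumours. Without Pdgfra, the marker of the highest level, the sums were 193, 143 and 269 CPM in Eed mutant replicates 1 to 3, against 267, 238 and 232 CPM in wild-type replicates 1 to 3. Those groups overlapped, and this sum was added after seeing the data. Unadjusted p under 0.05 in edgeR was found for 3 higher (Foxc1, Crabp2, Twist1) and 4 lower markers, beside 9.29% and 8.78% of all genes. DESeq2 called 0 higher and 1 lower (Dcn), beside 3.15% and 2.48% of all genes. The 14 choroid plexus markers summed to 217, 80.8 and 415 CPM in Eed mutant tumours and 368, 266 and 148 CPM in wild-type tumours, with overlapping groups and 0 calls.

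Vascular and immune markers completed these lists. Their DESeq2 calls stand beside 3.15% of all genes called higher and 2.48% called lower. The 13 endothelial markers summed to 251 to 279.5 CPM in Eed mutant tumours and 198 to 239 CPM in wild-type tumours, with 3 higher and 0 lower calls in DESeq2. The 12 pericyte and smooth muscle markers summed to 299 to 363 CPM in Eed mutant tumours and 258 to 298 CPM in wild-type tumours, with 2 higher calls, Rgs5 and Acta2. Without Rgs5 the pericyte sums were 141 to 183 CPM in Eed mutant tumours and 138 to 160 CPM in wild-type tumours, and overlapped. The 12 microglia markers summed to 336 to 399 CPM in Eed mutant tumours and 348 to 512 CPM in wild-type tumours, with 1 lower call. None of these markers was at 0 in all tumours, and their part in the result was not tested.

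Across the 6 tumours the log2 CPM of Igf2 and H19 had a Pearson correlation of 0.981. These 6 points share the split into groups, and among 15932 genes of at least 1 CPM on average, 29 (0.182%) were closer to Igf2 than H19 was. The 5 genes most like Igf2 were Dnaaf3, Cdkn1c, Gm28653, Unc45b and Cdhr1, at correlations of 0.993 to 0.996. The 5 most like H19 were Ccnd3, Atp2a1, Mypn, Myog and Efna5, at 0.991 to 0.996. Of these, Unc45b encodes a myosin chaperone, Atp2a1 the fast muscle calcium pump and Mypn a sarcomere protein. The roles of the others, among them Dnaaf3, the closest to Igf2, and Ccnd3, the closest to H19, were not compared. How many muscle genes are among all genes of like pattern was not counted. Correlations above 0.9 were found for 2.84% of genes with Igf2 and 3.71% with H19.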

How the data were processed

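RNA was extracted with TRIzol and sequenced as Illumina libraries, per the labels' protocols. The authors deposited kallisto estimated counts and TPM per transcript, with transcript lengths, 1 file per sample, per the file headers. Per the submitters' processing notes, kallisto was 0.43.1 and the build GRCm38 (mm10). Strand and read length are not given in the sources used here. Estimated counts were summed per gene and rounded. edgeR 4.0.16 (TMM, default filter, quasi-likelihood test) in R 4.3.3 compared 3 Eed mutant with 3 wild-type samples across all genes and all transcripts, with Benjamini-Hochberg adjustment at 0.05. DESeq2 1.42.0, limma 3.58.1, other scalings and filters, and leaving out each library were alternatives. Ratios and shares had exact permutation tests. Coordinates come from GENCODE M21 (52403 genes matched, 147 did not). The members and the 10 gene lists were chosen with earlier results of these data known. List examples are the largest absolute log2 differences, up to 4 per list. DESeq2 calls, receptors and uncalled imprinted genes were also named, after their values were seen. Genes in the search for like patterns needed a mean of 1 CPM. The fits were tested on simulated counts, in which a larger share of DESeq2's calls than of edgeR's was false, most of all for transcripts. Those counts were drawn with edgeR's own estimates of spread and few changed features. They therefore do not measure how many DESeq2 calls are false in these data. Exact intervals cover counting error only.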

Additional observations from a re-analysis of the deposited data

How the results depend on the processing

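edgeR called 0 genes and 0 transcripts, while DESeq2 called 920 genes and 951 transcripts. The log2 differences of Igf2 and H19 kept their direction in all 25 alternatives, from 0.94 to 1.49 for Igf2 and from 2.54 to 4.35 for H19. They passed the threshold in DESeq2 (1.29 for Igf2 and 3.32 for H19), which called 212 to 1257 genes and 466 to 1369 transcripts when each library was left out. In edgeR, leaving out a library gave 0 to 9 called genes. limma-voom called 1 gene, limma-trend on log2(TPM + 0.1) 1 and edgeR without a filter 3. DESeq2 with the file code as a term, added after seeing the data, called 631 genes and gave 1.36 for Igf2 and 3.65 for H19. With the replicate number as a block, edgeR called 273 genes, with 1.25 for Igf2 (adjusted p 0.0185) and 3.45 for H19 (adjusted p 0.00404), and DESeq2 1066 genes, with 1.25 and 3.46. The labels do not say whether the replicate numbers pair the samples. Deviations from the group mean of same-numbered samples correlated at 0.227, 0.0624 and -0.135. Eed mutant replicates 1 and 2 correlated best with the wild-type sample of their own number, and replicate 3 with wild-type replicate 2 (0.193). With 3 samples a group these values cannot decide whether the numbers are pairs. The H19-202 share difference of -2.22 points ran from -5.84 to 2.08 when each library was left out, reversing only without wild-type replicate 2. The Igf2-201 share kept its direction in 8 of 8 alternatives, from -7.04 to -1.53 points, the last as a share of TPM. The H19 to Igf2 ratio did so in 9 of 9. H19-201, H19-204, Mir483 and Mir675 had too few counts for a test.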
